A study of Mus musculus with 3 samples.

Results

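The matrix metalloproteinases Mmp2, Mmp9, Mmp12, Mmp14, Mmp15 and Mmp19, their tissue inhibitors Timp1, Timp2 and Timp3 and the sheddase Adam17 were followed through mouse glioblastoma, to find which cells carried the mRNA of the proteases and which carried that of the inhibitors. These 10 genes were chosen by name, with earlier results of these data known, and all were among the 50262 gene rows of the table. The tumors were driven by a conditional human EGFR transgene of wild-type sequence in mice that were also Cdkn2a-/- and carriers of a conditional luciferase reporter, on a mixed genetic background. They were started in adult animals by injecting a lentivirus with TGFa and Cre into the striatum, so only infected cells and their progeny express the transgene, whereas Cdkn2a is missing from every cell, leukocytes included. Brains were dissociated with collagenase, and living cells were sorted into CD45+ cells (leukocytes) and CD45- cells (tumor, glial, neuronal, vascular and stromal cells) at an early, a medium and a large stage, the last called late here. Each stage is 1 tumor sample, the early one pooled from 2, and the 4 libraries of a stage and sort are technical repeats. No tumor-free brain was analysed here.

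Matrix metalloproteinases are zinc enzymes that cut collagens, gelatins, elastin and other matrix and surface proteins. Most are secreted as inactive precursors, while the membrane-type enzymes Mmp14 and Mmp15 sit on the cell surface, where Mmp14 together with Timp2 activates the precursor of Mmp2. The inhibitors bind the active site. Timp1 is a poor inhibitor of membrane-type enzymes, and Timp3, which is held in the matrix, also inhibits Adam17, the enzyme that releases Tnf and several EGFR ligands from the cell surface. In glioma these genes are known from the spread of tumor cells through brain tissue and from the opening of vessel walls.

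Counts are unique molecular identifiers (UMIs), each standing for 1 captured mRNA molecule, and levels are CPM, the UMIs of a gene per 1000000 UMIs of the same group of cells. After filtering, 17781 cells remained, 11185 CD45+ and 6596 CD45-. Sums per stage ranged from 5381839 UMIs in late to 10808099 UMIs in early CD45+ cells, and from 6559876 UMIs in medium to 10589403 UMIs in late CD45- cells. Ptprc, the gene of CD45, lay between 227 and 250 CPM in the 3 CD45+ sums and between 3.59 and 15.9 in the CD45- sums. The EGFR transgene was at 7.28 CPM in early, 706 in medium and 1220 in late CD45- cells, but also at 271 in medium CD45+ cells. The CD45+ sort held 114 Lgals1-type and 152 Pdgfra-type glioma-like cells, as classed by markers, with EGFR UMIs in 80.7% and 75.0% of them. Libraries were uneven, since 1 late CD45+ library held 17 cells. Libraries also shared cell barcodes. Of 18335 distinct barcodes, 2117 were in more than 1 library, and the 36 pairs of libraries of the same sample and sort shared a median of 4.91% of the barcodes of the smaller library, against 0.644% in the 240 other pairs. The profiles behind a barcode shared within a sample and sort had a median correlation of 0.36, against 0.29 for random cells of such libraries. Whether some cells were counted in more than 1 library was not tested. With the deepest copy of each such barcode alone, which left 16627 cells, the counts of called members between sorts and from early to late stayed as they were. The counts from early to medium were not repeated with these cells.

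**Figure D1:**
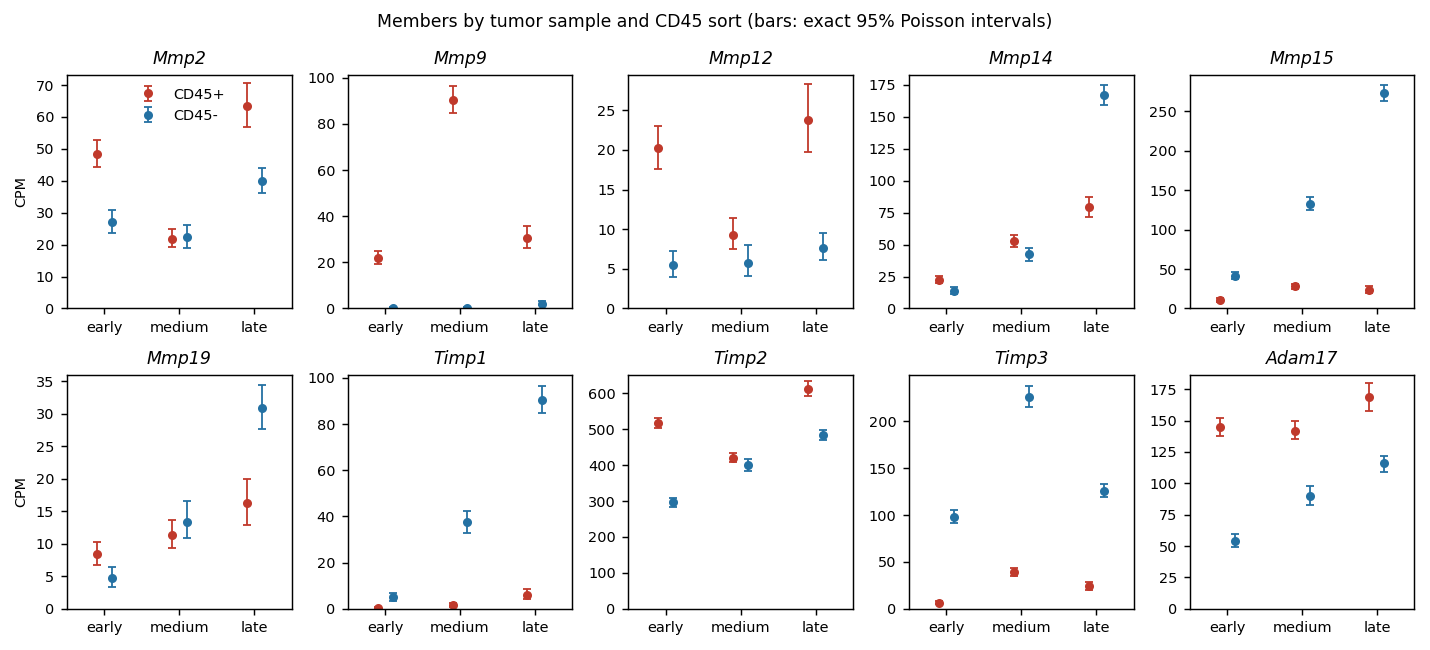
CPM of each of the 10 genes (vertical axes, each from 0) in the early, medium and late tumor samples (horizontal axes), for CD45+ cells in red and CD45- cells in blue. Points are sums over all cells of a sample and bars are exact 95% Poisson intervals; Mmp9 is near 0 in CD45- cells at every stage, while Mmp14, Mmp15, Mmp19 and Timp1 reach their highest level in late CD45- cells.

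The sorts were compared first, to ask whether leukocytes or the rest of the tumor carried each gene. Of the 10 genes, 5 were higher in CD45+ cells (Mmp2, Mmp9, Mmp12, Timp2 and Adam17) and 3 were lower (Mmp15, Timp1 and Timp3), while Mmp14 and Mmp19 passed the test in neither direction. Over all 18433 genes tested, 20.4% were higher and 25.7% lower, and 46.1% were called in either direction, so a call between these sorts is common. The test was edgeR's quasi-likelihood test with Benjamini-Hochberg adjustment, with the tumor sample as a block. In sums over a sort, fewer cells of a type and less mRNA per cell cannot be told apart.

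Mmp9, a gelatinase stored in neutrophil granules, had 236, 880 and 165 UMIs in early, medium and late CD45+ cells, which is 21.8, 90.4 and 30.7 CPM. In CD45- cells it had 0, 0 and 22 UMIs, where 0 UMIs allow up to 0.370 and 0.457 CPM. The sorts did not overlap, and the log2 fold change was 6.21 (SE 0.93, adjusted p = 1.90e-03, edgeR). With every gene of 1 count tested, the adjusted p of Mmp9 was 0.107. Mmp12, the macrophage elastase, was at 20.2, 9.25 and 23.8 CPM in CD45+ cells and at 5.43, 5.79 and 7.65 in CD45- cells, and was higher in CD45+ cells of 3 of 3 samples (log2 fold change 1.78, SE 0.30, adjusted p = 2.60e-03, edgeR). Adam17 was at 145, 142 and 169 CPM in CD45+ cells and at 54.3, 90.2 and 116 in CD45- cells, again without overlap (1.24, SE 0.24, adjusted p = 4.59e-03, edgeR).

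The calls of Mmp2 and Timp2 were closer to the threshold. Mmp2, the gelatinase of fibroblasts and many other cells, was at 48.5, 21.9 and 63.5 CPM in CD45+ cells and at 27.2, 22.4 and 39.9 in CD45- cells. It was higher in CD45+ cells of 2 of 3 samples (log2 fold change 0.86, SE 0.22, adjusted p = 1.52e-02, edgeR), and without the block for tumor sample the adjusted p was 0.0781. With 1 tumor sample left out, the adjusted p of Mmp2 was 0.0517 without the early, 0.0129 without the medium and 0.0849 without the late sample. Timp2 was at 518, 421 and 613 CPM in CD45+ cells and at 296, 400 and 484 in CD45- cells, higher in 3 of 3 samples (0.77, SE 0.25, adjusted p = 3.79e-02, edgeR). The call of Timp2 was lost when any 1 tumor sample was left out, with adjusted p values of 0.166 without the early, 0.101 without the medium and 0.0512 without the late sample. With library sizes alone in place of TMM scaling, which shifted the median log2 fold change over all genes from -0.04 to -0.40 and the calls from 3759 higher and 4744 lower to 2589 and 6559, neither Mmp2 nor Timp2 was called.

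Timp1, the inhibitor induced in injured tissue, was lowest in CD45+ cells relative to CD45- cells. It had 3, 14 and 32 UMIs in the 3 CD45+ sums (0.278, 1.44 and 5.95 CPM) and 40, 246 and 959 UMIs in the CD45- sums (4.94, 37.5 and 90.6 CPM). The log2 fold change was -3.86 (SE 0.28, adjusted p = 1.26e-04, edgeR), and each sample was lower in CD45+ cells. Timp3 was at 6.66, 38.9 and 23.8 CPM in CD45+ cells and at 98.4, 226 and 126 in CD45- cells (-2.55, SE 0.35, adjusted p = 1.20e-03, edgeR). Mmp15, a membrane-type enzyme, lay between 10.6 and 28.1 CPM in the 3 CD45+ sums and at 41.4, 133 and 273 in CD45- cells (-2.20, SE 0.33, adjusted p = 1.79e-03, edgeR). In the CD45+ sort, 31.2% of the Mmp15 UMIs on average over samples came from the Pdgfra-type class (17.4% to 53.8%), 29.9% from microglia-like cells (6.96% to 63.5%) and 19.4% from the Lgals1-type class (0% to 40.3%), which made up 1.48%, 48.1% and 1.23% of the cells.

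For Mmp14 and Mmp19 the order of the sorts turned between samples. Mmp14 was at 22.3, 52.8 and 79.3 CPM in CD45+ cells and at 13.8, 42.4 and 167 in CD45- cells, so CD45+ cells were higher in the early and medium samples and lower in the late one (log2 fold change 0.33, SE 0.35, adjusted p = 0.482, edgeR). Without the late sample it was called higher in CD45+ cells (0.88, adjusted p = 0.0413). Mmp19 was at 8.42, 11.3 and 16.2 CPM in CD45+ cells and at 4.69, 13.4 and 30.9 in CD45- cells (0.21, SE 0.35, adjusted p = 0.655, edgeR).

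**Figure D2:**
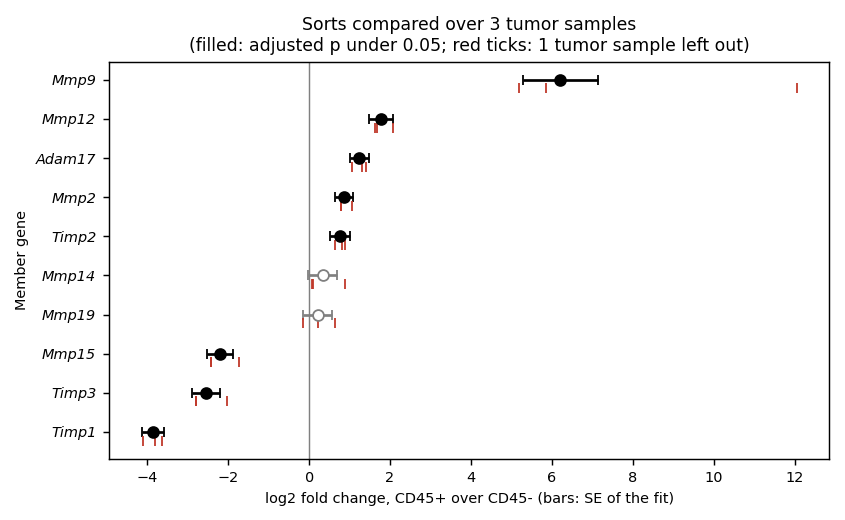
Log2 fold change of CD45+ over CD45- cells (horizontal axis) for the 10 genes, over 3 tumor samples; bars are the SE of the fit, filled points passed an adjusted p of 0.05 and red ticks are the values with 1 tumor sample left out. Mmp9 lies at 6.21 and Timp1 at -3.86, and the ticks of Mmp19 fall on both sides of 0; the highest tick of Mmp9 is the fit without the late sample, where CD45- cells held no Mmp9 UMI and the fold depends on the prior count.

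Related genes of the same families were also compared between the sorts. The counts below stand beside 20.4% higher and 25.7% lower in CD45+ cells over all genes tested, and no list was tested as a set. Of 17 other metalloproteinases, 6 had enough counts. CD45+ cells were higher in 2 and lower in 2 of these, and the median log2 fold change was -0.61, against -0.04 over all genes. The neutrophil collagenase Mmp8 had 72.5 ± 73.6 CPM in CD45+ and 0.0315 ± 0.0545 in CD45- cells (SD, n = 3), and the leukocyte enzyme Mmp25 had 14.5 ± 15.2 and 1.22 ± 0.146. Mmp11 and Mmp17 were lower in CD45+ cells, by log2 fold changes of -1.79 and -1.97. Of 13 ADAMTS proteases tested, 1 was higher (Adamts16) and 7 were lower, among them the proteoglycan-cutting enzymes Adamts4 (log2 fold change -4.67) and Adamts5 (-2.35), and the median of the list was -1.64. Of 11 other ADAM genes, 3 were higher (Adam8, Adam15 and Adam33) and 4 lower (Adam9, Adam11, Adam22 and Adam23). Of 5 genes of the plasminogen system tested, 3 were higher in CD45+ cells, among them the protease Plau (2.97) and its receptor Plaur (4.46), and the activator Plat was lower (-3.79). Among 18 activators, inhibitors and partners, 5 were higher and 8 lower. The higher ones included Lcn2, which binds Mmp9 (9.69), the Adam17 cofactor Rhbdf2 (2.71) and the precursor-cutting protease Furin (1.51). The lower ones included the broad protease inhibitor A2m (-5.09) and the matrix proteoglycans Spock1 (-2.74), Spock2 (-3.28) and Spock3 (-4.16). Of 12 proteins that Adam17 is known to shed, the genes of 9 were higher in CD45+ cells, among them the EGFR ligand Areg (5.53), the Tnf receptor Tnfrsf1b (5.08) and the growth factor receptor Csf1r (4.57), and those of Cx3cl1 (-2.38) and the EGFR ligand Tgfa (-1.39) were lower.

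To find the source within each sort, cells were grouped into 16 classes by markers, with the 10 genes left out of the grouping. Syn3 and Tmem198b, which are set beside Timp3 and Mmp19 below, were not barred from it. Each class is described in the sort that holds most of its cells, as the mean over tumor samples with at least 20 such cells, and no test was made between classes. Class names rest on RNA markers and end in "-like". Cells with tumor markers fell into a Lgals1-type class (668 CD45- cells) and a Pdgfra-type class (1080 CD45- cells), the second of which also held oligodendrocyte progenitors. The Lgals1-type class was 2 clusters, 1 led by Itga8 that came almost all from the late sample, with EGFR UMIs in 88.4% of its cells, and 1 with Apobec3 and Gfra3 among its leading genes, found in the medium sample alone, with 83.9%. In the latter Lgals1 itself did not pass as a marker, and its name rests on the EGFR and Cre transcripts and on Hbegf, Vim, S100a6, Emp1 and Gfap. At a clustering resolution of 2 all 119 CD45- cells of this medium cluster were named Pdgfra-type instead, so the medium values given for Lgals1-type cells depend on that name. The early sample held 4 such cells. For these clusters, cell type and tumor sample cannot be told apart. In the Pdgfra-type class, a cluster led by Gpr17 and related genes had EGFR UMIs in 80.6% of its cells, and a cluster led by C1ql2 had them in 2.37%. Among macrophage or monocyte-like cells, 1 cluster was led by Cxcl9, 1 by Rnase2a, Gpnmb and Arg1, and 1 mixed the monocyte genes Ly6i and Ccr2 with the dendritic cell gene Xcr1. No separate dendritic cell class was found. A cluster led by Elane, Mpo and Prtn3, a cycling cluster and a cluster led by predicted repeat genes stayed unnamed (413 CD45+ and 29 CD45- cells).

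**Figure D3:**
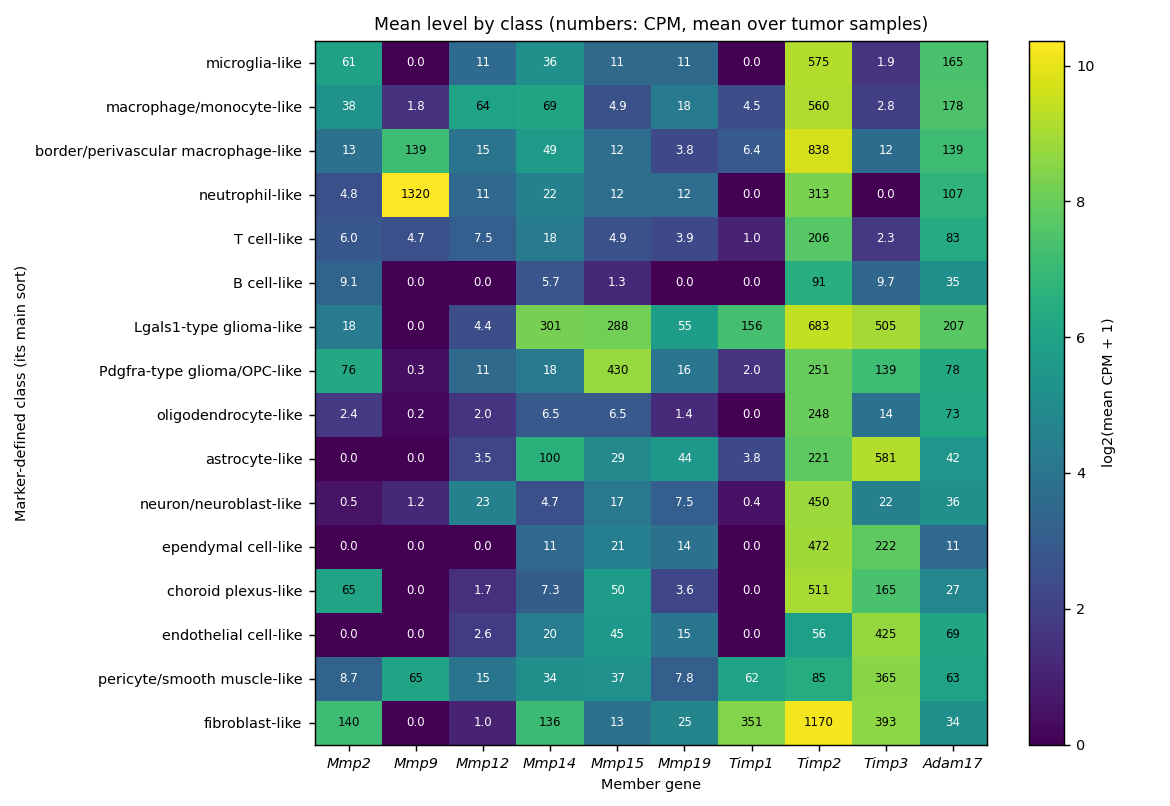
Mean CPM of the 10 genes (columns) in the 16 marker-defined classes (rows), each in its main sort and averaged over tumor samples with at least 20 cells. Colour is log2(mean + 1) and the number in each field is the mean; Mmp9 stands at 1320 in neutrophil-like cells, Timp1 is highest in fibroblast-like cells with 351, and Timp2 is above 50 in every class.

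The 2 gelatinases came from different cells. Mmp9 (chromosome 2, 164940780 to 164955850, GRCm38) was highest in neutrophil-like cells, at 1010, 1020 and 1920 CPM from the early to the late sample, with a mean of 1320 ± 521 (SD, n = 3) that was 863 with classes made without clusters. Border or perivascular macrophage-like cells, which line the vessels and meninges, followed at 175, 143 and 97.7. The ranges of these classes did not overlap. Microglia-like cells had 0 Mmp9 UMIs in 5734 cells, which allows a share of up to 0.0523% of cells with a UMI, for counting error only, and macrophage or monocyte-like cells had 1.80 ± 1.18 CPM. Neutrophil-like cells were on average 2.86% of CD45+ cells but held 80.1% of the Mmp9 UMIs of the sort, from 59.7% to 93.3% over samples. When cells were thinned to 1000 UMIs, with shallower cells left out, 47.6% of neutrophil-like cells (95% exact binomial interval 42.0 to 53.1) and 8.82% of border or perivascular macrophage-like cells (6.31 to 11.9) had a Mmp9 UMI. The shares before thinning were 62.3% and 11.9%, at medians of 2288 and 2008 UMIs per cell. The intervals of all thinned shares are over cells pooled from the tumor samples and hold no variation between samples. Of the 329 neutrophil-like cells, 251 were from the medium sample. The shallower cells left out were 1 neutrophil-like and 15 border or perivascular macrophage-like cells here and, in the thinned shares of the other genes, 141 microglia-like, 48 oligodendrocyte-like, 11 Lgals1-type, 51 Pdgfra-type, 40 endothelial-like and 0 fibroblast-like cells. In the late CD45- sort, 15 of the 22 Mmp9 UMIs lay in 3 pericyte or smooth muscle-like cells, and the early and medium samples had 0 UMIs in this class.

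Mmp2 (chromosome 8, 92827291 to 92853420) had several sources. Fibroblast-like cells were highest, at 91.7, 179 and 149 CPM (140 ± 44.4, SD, n = 3), and overlapped in range with the Pdgfra-type class (114, 39.4 and 75.0), which in turn overlapped with choroid plexus-like (64.7 ± 24.3) and microglia-like cells (59.9, 70.5 and 51.8). Within the Pdgfra-type class, the C1ql2-led cluster with few EGFR UMIs held 122, 131 and 135 CPM, and the EGFR-rich Gpr17-led cluster 77.9, 20.5 and 71.7, the first value of the latter from 33 cells. Astrocyte-, endothelial- and ependymal-like cells had 0 Mmp2 UMIs. Microglia-like cells held 480 of the 524 Mmp2 UMIs of early CD45+ cells but 102 of the 342 in late ones. Macrophage or monocyte-like cells held 7 early (8.97 CPM), 64 medium (16.8) and 183 late UMIs (89.0). In the cluster led by Gpnmb and Arg1, which supplied 571 of the 682 late cells of this class, Mmp2 was at 10.7 CPM in 64 early cells (2 UMIs) and at 99.8 in the late cells. The macrophage level was thus below the microglia-like one in the early sample (59.9) and above it in the late sample (51.8). Thinned to 1000 UMIs, 4.60% of microglia-like cells (4.06 to 5.18) had a Mmp2 UMI, against 0.224% of oligodendrocyte-like cells (0.0821 to 0.486), a class in which Mmp2 was at 2.41 CPM; before thinning the shares were 7.66% and 0.623%, at medians of 1898.5 and 2471.5 UMIs.

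Mmp12 (chromosome 9, 7344381 to 7369499) had a level that rested on few cells. Macrophage or monocyte-like cells had 137, 13.4 and 41.8 CPM (64.1 ± 64.8, SD, n = 3). Early, 107 UMIs lay in 20 of 307 cells. At the medium stage 51 UMIs lay in 30 of 1663 cells, and late 86 UMIs lay in 28 of 682 cells, 1 of which held 28 UMIs, or 32.6%. Without the cell with most UMIs in each sample, the levels were 107, 11.5 and 28.3 CPM. The Gpnmb- and Arg1-led cluster held 159 of the 244 UMIs of the class, at 430, 22.7 and 40.6 CPM. Its early value came from 80 UMIs in a cluster of 64 early cells. The cluster with Ly6i, Ccr2 and Xcr1 held 60 UMIs, at 67.0, 26.2 and 60.7 CPM. The runs, each with other libraries of the same tumor samples, differed in direction. A ratio within a run rests on few libraries, and runs are technical repeats. The ratio of late to early in this class was 2.60 within run 2 and 0.0883 within run 3, against 0.305 (0.227 to 0.409) over all runs. Neuron or neuroblast-like cells followed at 26.5, 13.9 and 27.7 CPM, with 46 UMIs in all and no more than 3 in a cell, and their range overlapped with that of the macrophages. All other classes had means of at most 15.3.

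Mmp14 (chromosome 14, 54431612 to 54445364) was highest in Lgals1-type glioma-like cells, at 177 medium and 425 late CPM (164 and 1665 UMIs). Fibroblast-like cells came next at 97.9, 165 and 145, then astrocyte-like cells at 69.0, 87.1 and 143 (33 UMIs in all), then macrophage or monocyte-like cells at 15.4, 82.4 and 108. The lowest Lgals1-type value lay above the highest fibroblast-like one, while the other neighbours in this order overlapped. Pdgfra-type cells had a mean of 17.9 CPM, with a range of 8.26 to 29.7 that did not overlap with that of Lgals1-type cells. Lgals1-type cells held 94.1% of all Mmp14 UMIs of late CD45- cells, and 7.14% in the early sample. After thinning to 1000 UMIs, 27.2% of Lgals1-type cells (23.9 to 30.8) and 0.746% of oligodendrocyte-like cells (0.456 to 1.15) had a Mmp14 UMI. Unthinned shares were 66.9% and 1.61%, at medians of 6248.5 and 2471.5 UMIs.

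Mmp15 (chromosome 8, 95352268 to 95375080), the other membrane-type enzyme, was highest in the Pdgfra-type and Lgals1-type classes. Pdgfra-type cells had 479, 407 and 404 CPM (430 ± 42.2, SD, n = 3) and Lgals1-type cells 161 and 416 in the medium and late samples, and these ranges overlapped. No other class had a mean above 50.4, that of choroid plexus-like cells, and the lowest Lgals1-type value lay above all of them. Within the Pdgfra-type class, the C1ql2-led cluster with EGFR UMIs in 2.37% of its cells had 523, 674 and 834 CPM, and the EGFR-rich Gpr17-led cluster had 273, 352 and 380, lower in each sample. The Pdgfra-type class held 60.1% and the Lgals1-type class 24.8% of the Mmp15 UMIs of the CD45- sort on average over samples. The C1ql2-led cluster alone held 189 of the 335 early, 190 of the 874 medium and 130 of the 2892 late Mmp15 UMIs. Thinned to 1000 UMIs, 30.9% of Pdgfra-type cells (28.1 to 33.8), 22.1% of Lgals1-type cells (19.0 to 25.4) and 0.671% of oligodendrocyte-like cells (0.398 to 1.06) had a Mmp15 UMI. Unthinned, the shares of the first and second of these classes were 58.6% and 63.6%, at medians of 3311 and 6248.5 UMIs.

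Mmp19 (chromosome 10, 128790910 to 128800824) was highest in Lgals1-type cells, at 42.1 and 67.4 CPM in the medium and late samples, and the astrocyte-like range of 24.9 to 71.5 overlapped with it on 14 UMIs. Its values cannot be separated over all cells from those of Tmem198b, a gene on the opposite strand that shares 789 exonic bases with its 3′ end. Of 585 cells with a Mmp19 UMI, 475 (81.2%) also had a Tmem198b UMI, which is 87.5% of all cells with a Tmem198b UMI, and in 422 cells the counts of the genes were equal. In all Lgals1-type cells Tmem198b had 295 UMIs against 319 of Mmp19, and in microglia-like cells both had 115. Neuron or neuroblast-like cells, with 13 Mmp19 and 4 Tmem198b UMIs, and ependymal-like cells, with 4 and 2, were further apart.

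Timp1 (chromosome X, 20870166 to 20874735) was found in 2 main sources. Fibroblast-like cells had 110, 490 and 452 CPM (351 ± 209, SD, n = 3) and Lgals1-type cells had 99.3 and 213 in the medium and late samples, ranges that overlapped. Pericyte or smooth muscle-like cells had 62.3 ± 71.3 on 15 UMIs, and no other class exceeded a mean of 6.38. Pdgfra-type cells had 1.99 ± 2.13 CPM, below both Lgals1-type values. Microglia- and oligodendrocyte-like cells had 0 Timp1 UMIs in 5734 and 2730 cells, which allows shares of up to 0.0523% and 0.110% of cells with a UMI. Fibroblast-like cells held 90.0% and Lgals1-type cells 0% of Timp1 UMIs of early CD45- cells, and in late ones the shares were 11.1% and 87.1%. Of the 32 Timp1 UMIs of late CD45+ cells, 25 were in macrophage or monocyte-like cells. Timp1 lies within Syn1 on the opposite strand, but their exons share 0 bases, and 12 of 372 cells with a Timp1 UMI also had a Syn1 UMI.

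Timp2 (chromosome 11, 118301069 to 118355740) was present in every class, with means of at least 56.4 CPM and the highest level in fibroblast-like cells (1170 ± 283, SD, n = 3), followed by border or perivascular macrophage-like cells (838 ± 321), Lgals1-type cells (683 ± 83.5, n = 2), microglia-like cells (575 ± 57.4) and macrophage or monocyte-like cells (560 ± 196), each overlapping with the next. Endothelial-like cells (56.4 ± 52.0), pericyte or smooth muscle-like cells (102, 99.7 and 52.3) and B cell-like cells (91.1 ± 18.2) were lowest. After thinning, 48.2% of fibroblast-like cells (41.4 to 55.0), 35.8% of microglia-like cells (34.5 to 37.0) and 2.62% of endothelial-like cells (1.14 to 5.10) had a Timp2 UMI, against 71.8%, 51.4% and 2.90% unthinned. Within the macrophages, the Gpnmb- and Arg1-led cluster had 816, 1110 and 863 CPM, the Cxcl9-led cluster 495, 557 and 566, and the cluster with Ly6i, Ccr2 and Xcr1 126, 112 and 149, and none of these ranges overlapped.

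Timp3 (chromosome 10, 86300372 to 86349506) was carried by glial, vascular and stromal cells. Astrocyte-like cells (621, 573 and 548 CPM), endothelial-like cells (437, 489 and 350), fibroblast-like cells (459, 341 and 379) and pericyte or smooth muscle-like cells (367, 386 and 340) were high, and Lgals1-type cells had 818 in the medium but 192 in the late sample. Microglia-like cells had 1.93 ± 1.68, macrophage or monocyte-like cells 2.81 ± 1.75 and neutrophil-like cells 0 CPM. Endothelial- and pericyte or smooth muscle-like cells were thus high in Timp3 and among the lowest in Timp2, and microglia-like cells the other way round. In the CD45+ sort, Lgals1-type cells held 46.0% of the Timp3 UMIs on average over samples (5.56% to 73.4%). Timp3 lies within Syn3, a synapsin gene on the opposite strand, and shares 1733 exonic bases with it. Of 1545 cells with a Timp3 UMI, 1357 (87.8%) also had a Syn3 UMI, which is 96.2% of all cells with one, and 1181 had equal counts of both. Astrocyte-like cells, in which Timp3 was at 604 CPM over both sorts, had 542 CPM of Syn3. In the classes where Timp3 was high, the counts of Timp3 and Syn3 cannot be told apart. Where it was low the overlap varied between classes. A Syn3 UMI was found in 3 of 27 microglia-like, 10 of 34 neuron or neuroblast-like and 54 of 86 oligodendrocyte-like cells that had a Timp3 UMI. It was also found in 12 of 19 macrophage or monocyte-like, 8 of 8 border or perivascular macrophage-like and 3 of 3 B cell-like cells that had one.

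Adam17 (chromosome 12, 21323509 to 21373632) was broad, with the highest levels in Lgals1-type cells (227 and 187 CPM), macrophage or monocyte-like cells (133, 195 and 205) and microglia-like cells (157, 169 and 171). The macrophage range overlapped with both others, and the lowest Lgals1-type value lay above the highest microglia-like one. Fibroblast-like cells (34.5 ± 7.02, SD, n = 3), choroid plexus-like cells (27.0 ± 14.1) and ependymal-like cells (10.6, n = 1) were lowest. Adam17 shares 311 exonic bases with Iah1, on the opposite strand. Of 3327 cells with an Adam17 UMI, 453 (13.6%) also had an Iah1 UMI. Astrocyte- and endothelial-like cells, which were among the classes highest in Timp3, had 42.3 ± 29.3 and 69.3 ± 28.2 CPM of Adam17.

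**Figure D4:**
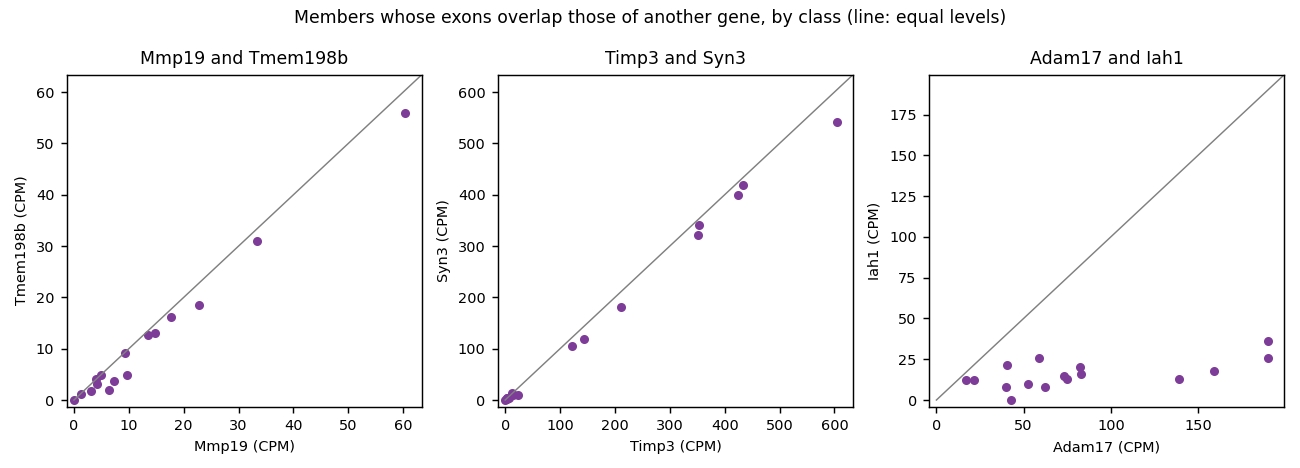
CPM of Mmp19, Timp3 and Adam17 (horizontal axes) against those of the gene whose exons overlap them on the opposite strand, Tmem198b, Syn3 and Iah1 (vertical axes); each point is 1 marker-defined class over both sorts and the line marks equal levels. Tmem198b and Syn3 lie close to the line, with 0.914 and 0.890 UMIs per UMI of Mmp19 and Timp3 over all cells, and Iah1 lies far below it, with 0.163.

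The genes with the most similar pattern over the 16 classes were found by Pearson's r of log2(CPM + 1) among 14650 genes that were no class markers. These r are descriptions, since classes share libraries and depth. Mmp9 was most like Clec4d, a neutrophil and macrophage lectin (r = 0.88), Ptgir (0.84) and Gm34084 (0.82). Timp1 was most like Mrgprf (0.89) and the collagen genes Col12a1 (0.89) and Col6a2 (0.87), and Mmp14 most like Tnfrsf12a (0.81), the receptor of Tweak, Oaf (0.81) and Tubb6 (0.80). Mmp19 was most like Tmem198b (0.95), Adam12 (0.84) and the protease inhibitor Serpine2 (0.84), and Timp3 most like Syn3 (0.99), the collagen chaperone Serpinh1 (0.95) and Lpar4 (0.94), where the first of each is the gene with shared exons. Mmp12 was most like Trpm2 (0.84), Ifi204 (0.81) and BC005537 (0.81). Mmp15 was most like Afap1l2 (0.84), Fbxo3 (0.82) and Strap (0.82), Adam17 most like Bach1 (0.90), Cfl1 (0.88) and Dpp8 (0.85), Timp2 most like Srxn1 (0.82), Phka2 (0.80) and Fgfr1op (0.78), and Mmp2 most like Os9 (0.75), Ltv1 (0.74) and Rab7b (0.74).

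The stages were then set side by side, to ask how each gene moved as the tumors grew. With 1 tumor sample per stage there is no test between stages, and the intervals given are exact 95% intervals of the ratio of CPM, from the counts alone, with no part of the variation from animal to animal. In late CD45- cells, 9 of the 10 genes were above their early level by such an interval and 0 below, and so were 9 and 0 in late CD45+ cells. Over all genes with at least 20 UMIs, 39.3% were above and 22.2% below in CD45- cells, and 25.8% and 16.0% in CD45+ cells. In both sorts the exception was Mmp12, at 1.41 (0.964 to 2.08) in CD45- and 1.18 (0.940 to 1.47) in CD45+ cells. A call by a counting interval depends on the number of UMIs. Timp2 was called in CD45+ cells at the same ratio of 1.18, on 5598 early and 3297 late UMIs, against 218 and 128 of Mmp12. The shares over all genes were not matched for UMIs. In CD45+ cells the Mmp12 ratio was 0.253, 4.07 and 0.492 within runs 1, 2 and 3, and on the log2 scale -0.66 without the third and 0.80 without the fourth late library. From the early to the medium sample, 7 genes were above and 0 below in CD45- cells, against 28.6% and 19.6% of all genes. In CD45+ cells, 5 were above (Mmp9, Mmp14, Mmp15, Mmp19 and Timp3) and 3 below (Mmp2, Mmp12 and Timp2), against 26.5% and 30.6% of all genes, with Timp1 left out for its 3 early and 14 medium UMIs. The EGFR transgene was at 1.85 CPM in early, 271 in medium and 84.7 in late CD45+ cells, so the counts for this sort are not of leukocytes alone. The ratio of medium to early for Mmp9 in CD45+ cells was 4.14 (3.58 to 4.80) over all runs and 0.569, 3.91 and 6.49 within runs 1, 2 and 3. The early CD45+ libraries reached from 13.2 to 121 CPM of Mmp9 and the medium ones from 68.9 to 114.

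In CD45- cells the ratio of late to early was 18.3 (13.4 to 25.8) for Timp1, 12.1 (9.98 to 14.8) for Mmp14, 6.60 (5.90 to 7.42) for Mmp15 and 6.58 (4.70 to 9.47) for Mmp19. Within runs 1, 2 and 3 it was 20.7, 12.3 and 23.3 for Timp1 and 26.2, 11.3 and 9.44 for Mmp14, above 1 in every run. The share of Lgals1-type cells moved with stage as well. Lgals1-type cells were 4 of the 2725 early CD45- cells and 530 of the 2268 late ones, and what part of these ratios comes from that shift was not tested. Mmp9 went from 0 early to 22 late UMIs, which is at least 4.19-fold by the lower end of its interval. The ratio was 2.13 (1.91 to 2.38) for Adam17, 1.64 (1.56 to 1.72) for Timp2, 1.47 (1.25 to 1.74) for Mmp2 and 1.28 (1.17 to 1.40) for Timp3. In CD45+ cells the ratio was 3.57 (2.65 to 4.83) for Timp3, 3.56 (3.03 to 4.18) for Mmp14 and 2.25 (1.74 to 2.92) for Mmp15, and below 2 for Mmp2, Mmp9, Mmp19, Timp2 and Adam17, while Timp1 had 3 early UMIs (21.4, 6.70 to 109). Of the Timp3 UMIs of this sort, Lgals1-type cells held 46.0% and Pdgfra-type cells 11.4% on average over samples. Of the Mmp15 UMIs they held 19.4% and 31.2%. Timp3 was at 2.75 CPM early and 3.05 late in microglia-like cells, and at 1.28 and 2.43 in macrophage or monocyte-like cells. Mmp15 was at 9.12 and 12.7 in the former and at 3.84 and 3.89 in the latter. What part of the CD45+ ratios came from glioma-like cells was not tested. Within run 1 of the CD45+ sort the ratio of Mmp2 was 0.693, from 37 UMIs, and Mmp9 had no late UMI. Without the third late CD45+ library the intervals of Mmp2 and Mmp9 included 1 (log2 ratios 0.24 and 0.14), and that of Mmp9 also without the fourth early library (0.25).

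The 3 members whose ratio in CD45- cells was largest and for which a promoter was at hand are shown with the last 120 bases before the start of transcription, together with 1 of the 2 entries of Mmp12. The Mmp12 entry shown is the downstream one, chosen because it holds a searched motif, and the entry at the annotated gene start held none. Sequences are from RefSeq on GRCm38.p6, 5′ to 3′ on the strand of the gene. Capitals mark GGGCGGG (an Sp or KLF motif) or its complement and TGANTCA (an AP-1 motif).
Timp1, chrX:20870046-20870165, plus strand: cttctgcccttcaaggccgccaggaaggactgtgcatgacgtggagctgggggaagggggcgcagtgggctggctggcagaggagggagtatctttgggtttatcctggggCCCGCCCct
Mmp14, chr14:54431478-54431597, plus strand: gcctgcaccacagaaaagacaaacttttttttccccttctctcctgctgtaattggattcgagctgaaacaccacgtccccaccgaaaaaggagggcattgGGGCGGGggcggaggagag
Mmp15, chr8:95352176-95352295, plus strand: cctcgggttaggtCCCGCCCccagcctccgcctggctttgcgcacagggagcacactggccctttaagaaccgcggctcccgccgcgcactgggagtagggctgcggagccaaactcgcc
Mmp12, chr9:7347254-7347373, plus strand: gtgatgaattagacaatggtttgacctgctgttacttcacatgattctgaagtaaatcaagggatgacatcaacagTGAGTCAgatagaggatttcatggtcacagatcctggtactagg
In the 250 bases before the start, GGGCGGG was found in 4 of 8 entries of 7 members (Mmp14, Mmp15, Timp1 and Adam17), against 23.4% of all 32851 entries, and TGANTCA in 1 of 8, that of the downstream start of Mmp12, against 6.75%. CCGGAAGT (ETS) and GGGANTTCC (NF-kappaB), which 2.88% and 1.43% of all entries hold, were in 0 of the 8. Both strands were searched, and these letters are a description of the windows alone. Mmp2, Mmp9 and Mmp19 had no entry.

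Within classes, the direction of a gene between stages differed from class to class. Mmp14 was higher in the late sample in 3 myeloid classes. In macrophage or monocyte-like cells it went from 12 UMIs (15.4 CPM) early to 222 UMIs (108 CPM) late, a ratio of 7.03 (3.94 to 13.8), while runs 2 and 3 taken singly gave 9.43 and 5.72. Microglia-like cells went from 23.2 to 43.7 CPM (1.88, 1.44 to 2.44), with 1.65 and 2.15 within runs 2 and 3. Border or perivascular macrophage-like cells went from 20.9 to 80.5 (3.85, 1.62 to 9.36), on 11 early and 14 late UMIs. Mmp2 was higher in late macrophage or monocyte-like cells (9.93, 4.72 to 25.0) but not in microglia-like cells (0.864, 0.691 to 1.07). Between these samples the makeup of the macrophage class changed, since 64 of 307 early and 571 of 682 late cells were of the Gpnmb- and Arg1-led cluster. What part of the class ratios came with that change was not tested. Within the Gpnmb- and Arg1-led cluster Mmp14 and Mmp2 had ratios of 10.6 (2.88 to 87.7) and 9.29 (2.53 to 77.3), each from 2 early UMIs. Timp2 was at 816 and 863 CPM in that cluster early and late (1.06, 0.895 to 1.26), against a ratio of 1.94 (1.71 to 2.19) in the class as a whole. Of all genes with at least 20 UMIs, 17.7% were above and 15.5% below their early level in the macrophage class, and 16.6% and 8.25% in microglia-like cells.

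Fibroblast-like cells had more Timp1 in the medium and late samples, at 4.45 (3.07 to 6.60) and 4.11 (2.79 to 6.17) times the early level, from 36 early, 145 medium and 106 late UMIs. The cell with most UMIs held 30.3% of the medium UMIs and 26.4% of the late ones. Timp2 was 1.64 (1.40 to 1.93) times its early level in late fibroblast-like cells, and the intervals of Mmp2 (0.970 to 2.74), Mmp14 (0.887 to 2.48) and Timp3 (0.629 to 1.08) included 1. Of all genes there, 16.8% were above and 10.3% below.

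In Lgals1-type cells, where only medium and late samples can be set side by side, Timp1 had a ratio of late to medium of 2.15 (1.73 to 2.69), Mmp14 of 2.40 (2.04 to 2.83) and Mmp15 of 2.59 (2.19 to 3.08), each above 1 in all 3 runs. Timp3 went the other way, at 0.235 (0.212 to 0.260), with 0.185, 0.186 and 0.429 within the runs. Adam17 was at 0.825 (0.707 to 0.967), but at 1.43, 0.684 and 1.94 within the runs. Mmp2 went from 3 medium to 127 late UMIs (10.0, 3.35 to 49.2), Mmp19 had a ratio of 1.60 (1.14 to 2.30) and Timp2 of 1.19 (1.09 to 1.30). Over all genes with at least 20 UMIs there, 22.1% were above and 11.5% below. The medium and late cells are mostly of different clusters of this class, so stage, cluster and tumor sample cannot be told apart.

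In the Pdgfra-type class, Mmp15 was at 0.844 (0.728 to 0.983) of its early level in the late sample, while each of its clusters had a higher late value. The C1ql2-led cluster had a ratio of 1.59 (1.27 to 2.00), and runs 1 and 2 taken singly gave 2.70 and 1.80, and the Gpr17-led cluster went from 273 CPM in 33 early cells to 380. Of all genes, 16.9% were above and 19.4% below in the class. The class was mostly C1ql2-led in the early sample (135 of 168 cells) and mostly Gpr17-led in the late one (552 of 607). The makeup of the class thus moved with its ratio, and its part in that ratio was not tested. Timp2 was at 0.878 (0.717 to 1.08) in the class and at 1.80 (1.33 to 2.43) in the C1ql2-led cluster. Oligodendrocyte-like cells, with EGFR UMIs in 0.916% of them, had more Timp2 in the late sample (1.55, 1.39 to 1.74), with 1.48, 1.68 and 1.41 within the runs, where 22.4% of genes were above and 8.69% below.

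**Figure D5:**
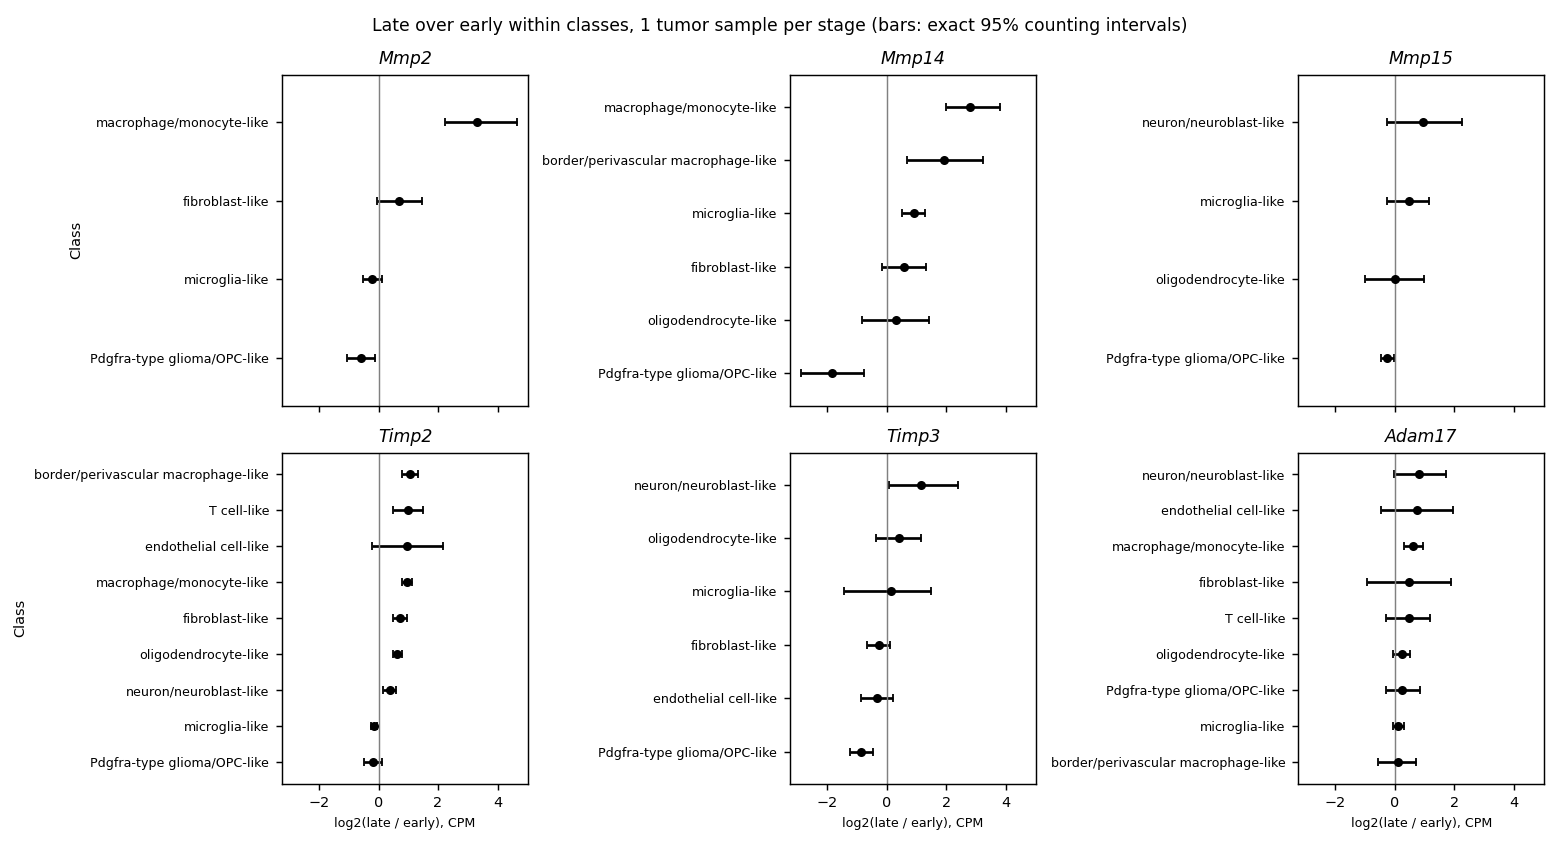
Log2 ratio of late to early CPM (horizontal axes) of 6 genes within marker-defined classes (vertical axes) that had at least 50 cells at both stages and 20 UMIs of the gene. Points are ratios between 1 tumor sample per stage and bars are exact 95% counting intervals; Mmp2 and Mmp14 lie above 0 in macrophage or monocyte-like cells and below 0 in the Pdgfra-type class.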

How the data were processed

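Single-cell RNA of sorted mouse glioma cells was measured on the inDrop platform. The authors mapped reads with RapMap in bcbio-nextgen to the GRCm38 transcriptome (mm10 in the submitters' processing notes) and deposited raw UMI counts per gene and cell; run, stage and sort came from their library annotation (unit: other). The study's methods describe removing ambient RNA with DropletUtils and doublets with scDblFinder. Whether this came before the deposited counts is not given in the sources used here. Whether counting used strand is not given either. All 20811 cell columns were used. Cells with at least 500 UMIs, 500 genes and at most 20% mitochondrial UMIs were kept; Scrublet called 113 of 17786 tested cells (0.635%), which were removed. This rate is low against the 6% that was assumed, so the 5% of cells with the highest scores were removed in an alternative. Cells were clustered with the Leiden algorithm (2000 variable genes, 40 principal components, 20 neighbours, resolution 1, scanpy 1.11.5). Left out were the 10 members, the genes of the other lists that are not markers, and sex and mitochondrial genes. Genes in no list were not barred, among them Syn3 and Tmem198b, whose counts were close to those of Timp3 and Mmp19. A cluster was named where at least 3 markers were 2-fold higher and in at least 10% of its cells.

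UMI sums of 3 CD45+ and 3 CD45- samples were tested with edgeR 4.0.16 (quasi-likelihood, TMM, filterByExpr, robust, tumor sample as a block; two-sided, Benjamini-Hochberg, threshold 0.05), with 2 residual degrees of freedom. The SE is the absolute log2 fold change over the square root of F. Both sorts of a pair come from the same tumor sample, and their deviations from the sort means correlated at 0.38, 0.28 and 0.32 over 18433 genes. Errors of means are SDs over tumor samples. The code of the test was also run on simulated counts with set changes. These counts had a common dispersion and no effect of tumor sample, so that run cannot vouch for calls that depend on the block. The 10 genes were always named; from each other list at most the 4 genes with the largest change in each direction could be named, and for each member the 3 most similar genes. Members, lists, markers and comparisons were chosen with earlier results of these data known. Positions are from the GENCODE annotation of GRCm38. Intervals cover counting error only. A further conditional allele of the mice and some genes of the lists are not reported here.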

Additional observations from a re-analysis of the deposited data

Results flagged for a closer look

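For 4 genes the ratio of late to early went in opposite directions in 2 classes, with both counting intervals clear of 1; each stage is 1 tumor sample, so the difference between classes was not tested. For each gene the classes given are those with the largest rise and the largest fall among such classes. How many of all genes meet this rule was not counted, so the 4 cannot be read as a trait of these genes. Mmp2 was 9.93 times its early level in late macrophage or monocyte-like cells and 0.658 times in the Pdgfra-type class, a difference of 3.91 on the log2 scale. Mmp14 was 7.03 times its early level in macrophage or monocyte-like cells and 0.279 times in the Pdgfra-type class, a difference of 4.65, and the latter rests on 13 early and 24 late UMIs. Timp2 was 2.08 times its early level in border or perivascular macrophage-like cells and 0.908 times in microglia-like cells, a difference of 1.20. Timp3 was 2.25 times its early level in neuron or neuroblast-like cells, on 10 early and 26 late UMIs, and 0.550 times in the Pdgfra-type class, a difference of 2.03. The Pdgfra-type class was mostly its C1ql2-led cluster in the early sample (135 CD45- cells, against 33 of the Gpr17-led cluster) and mostly its Gpr17-led cluster in the late one (552 against 55), and within the C1ql2-led cluster Mmp2 was at 1.11 (0.625 to 1.90) of its early level. Timp3 in that cluster was at 174 CPM early (63 UMIs) and 263 late (41 UMIs), a ratio of 1.51 (0.992 to 2.27) against 0.550 in the class, and Mmp14 was at 30.4 (11 UMIs) and 25.7 CPM (4 UMIs). In the Gpr17-led cluster Timp3 was at 130 CPM early (10 UMIs) and 81.8 late (225 UMIs), and Mmp14 at 26.0 (2 UMIs) and 7.27 CPM (20 UMIs).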

How the results depend on the processing

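The 5 genes called higher in CD45+ cells became 3 with library sizes alone, 3 with every gene of 1 count tested, 2 in run 1 alone, 4 in run 2 alone, which lost Timp2, and 4 without the replicate block, which lost Mmp2. With 1 tumor sample left out, between 3 and 4 genes were called higher. Mmp9, Mmp12 and Adam17 were called in all 3 of these fits, and the fourth gene was Mmp2 without the medium and Mmp14 without the late sample. The 3 lower genes stayed 3 except in run 1 alone, with 2. Of all genes, 8503 were called, and 3373 in run 1 alone, where 12304 were tested. Between the sorts, directions turned only for genes that had no call. Mmp14 was at -0.13 without the replicate block and -0.03 with library sizes alone, and Mmp19 at -0.06 and -0.15, and between -0.15 (without the early) and 0.65 (without the late) with 1 sample left out. The 9 genes above their early level in late CD45+ cells became 3 in run 1 alone, where Mmp2 was at -0.53 and Mmp9, with no late UMI, gave no ratio; nor did Mmp9 in CD45- cells, with no early UMI. The genes below their early level in CD45+ cells were 2 in run 1 alone, 1 in run 3 alone, and between 0 and 1 when 1 library was left out. The 1 gene was Mmp12, at -0.66 without the third late library. The leading class of some genes changed. With classes made without clusters, Mmp12 was led by natural killer cell-like cells (138 CPM, n = 3) and Adam17 by mast cell or basophil-like cells (307 CPM, n = 1). At resolution 2 Adam17 was led by macrophage or monocyte-like cells (189 CPM, n = 3). Mmp15 was led by Lgals1-type cells at resolution 2 and with the deepest copy of each shared barcode, and Timp3 without the late sample. In both of these settings for Mmp15 the medium Lgals1-type cluster was named Pdgfra-type (119 of 119 and 118 of 118 CD45- cells), so the medium values of the Lgals1-type class and its ratios of late to medium were not obtained. The mean of Mmp9 in neutrophil-like cells was 863 CPM with classes made without clusters and 943 with the deepest copy of each shared barcode, against 1320. The cause was not tested. The copy of each shared barcode was chosen after seeing the data. Members with few UMIs (Timp1 in CD45+ cells, Mmp9 in CD45- cells) are limited by depth.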
